A study of Mus musculus with 4 samples.

Results

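The genes described here are 8 granzyme genes, the perforin gene and Nkg7, read cell by cell in cells sorted for CD45 from mouse mammary tumours. The 10 genes (Gzma, Gzmb, Gzmc, Gzmd, Gzme, Gzmf, Gzmg, Gzmk, Prf1 and Nkg7) were taken by their symbols from a table of 55450 genes, and all 10 were found. Their unique molecular identifiers (UMIs, each standing for 1 captured RNA molecule) were counted in 32133 cells with at least 300 genes and at most 15% mitochondrial UMIs. Co-detection in the same cell was followed in 287 natural killer (NK) cells, taken as cells with Ncr1 and without Cd3d, and in 319 CD8 T cells, taken as cells with at least 2 UMIs of Cd3d and Cd3g and at least 1 of Cd8a and Cd8b1. None of the 10 genes was used to choose cells.

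Female BALB/c mice of 6 to 8 weeks carried 4T1 tumours, a mammary carcinoma line, grown from 1000000 cells injected into the right flank. By the labels, 2 samples received PBS and 1 received TIOs with near-infrared light (TIOs+NIR), and the remaining sample, titled PBS but with a protocol that names TIOs, was put in no group. TIOs are macrophages of a cell line made non-living in liquid nitrogen and loaded with the ferroptosis inducer RSL3, the photosensitiser Ce6 and upconverting nanoparticles. In all groups TIOs or PBS went into a vein on day 7, near-infrared exposures of 5 min (980 nm, 1 W per square cm) followed daily from day 8 to day 10, and the tumours came out on day 13. The count matrix holds 4 libraries that no label used here ties to a sample, so no treatment was compared, no p-value was computed, and each library is given as a sample of unknown treatment.

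Granzymes are serine proteases that cytotoxic lymphocytes store in granules. Perforin, the product of Prf1, forms pores through which granzymes reach the cytosol of a target cell, where granzyme B (Gzmb) cleaves caspases and other proteins and starts apoptosis. Granzyme A (Gzma) has a trypsin-like specificity, granzyme K (Gzmk) is related to it, and Nkg7 is a granule membrane protein of killer cells that takes part in granule release. Gzmc, Gzmd, Gzme, Gzmf and Gzmg are rodent granzymes related to Gzmb, known from strongly activated cytotoxic T cells and NK cells.

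On the mouse GRCm38 build, Gzmb to Gzmg lay on the minus strand in 145 kb of chromosome 14 (chr14:56117626-56262260), in the order Gzme, Gzmd, Gzmg, Gzmf, Gzmc and Gzmb by rising coordinate, with another granzyme gene, Gzmn (chr14:56165797-56174599), between Gzmg and Gzmf. Gzma (chr13:113093825-113100981) and Gzmk (chr13:113171608-113225908) were neighbours on chromosome 13, also on the minus strand. Prf1 stood at chr10:61297833-61304680 and Nkg7 at chr7:43437073-43438249, both on the plus strand. The 5 genes Gzmc to Gzmg shared a nearly identical stretch of promoter just before the transcription start, shown here because the counts of these genes are described together as a family. Each line gives 60 bases on the gene's own strand, 5′ to 3′, from RefSeq on GRCm38.p6, and capitals mark a base that is unlike the most common one of the 5:
Gzmc (chr14:56234680-56234739): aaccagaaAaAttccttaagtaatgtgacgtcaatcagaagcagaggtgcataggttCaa
Gzmd (chr14:56132620-56132679): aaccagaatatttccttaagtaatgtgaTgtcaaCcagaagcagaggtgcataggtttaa
Gzme (chr14:56120653-56120712): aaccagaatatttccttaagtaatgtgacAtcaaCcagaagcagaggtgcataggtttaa
Gzmf (chr14:56211455-56211514): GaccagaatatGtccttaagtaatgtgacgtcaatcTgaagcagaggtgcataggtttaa
Gzmg (chr14:56159622-56159681): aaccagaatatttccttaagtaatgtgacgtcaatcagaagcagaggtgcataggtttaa
In 51 of the 60 positions all 5 genes had the same base.

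The 250 bases before the start of all 10 genes were searched on both strands for 3 short motifs. The RUNX motif, AACCACA and read from the other strand TGTGGTT, was in the promoters of 7 members, Gzma to Gzmg, and in 4.40% of 32851 mouse promoters of the same length. In Gzmc to Gzmg it was AACCACA on the gene's own strand, 175 to 196 bases before the start. The matches of these related neighbours cannot be counted as independent. The CRE motif TGACGTC (read from the other strand GACGTCA, which overlaps it where both are found) was in 3 members, Gzmc, Gzmf and Gzmg, and in 2.78% of all promoters. In these 3 members it lay in the shared stretch shown above. The T-box motif, GGTGTGA and read from the other strand TCACACC, was in 2 members, Gzmk and Nkg7, and in 3.33% of all promoters. None of these letters was in the window of Prf1. The stretches of Gzma and Gzmb, the granzymes found in most NK cells, are given with the RUNX letters in capitals, in the same orientation and build:
Gzma (chr13:113101002-113101061): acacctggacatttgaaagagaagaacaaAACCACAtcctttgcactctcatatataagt
Gzmb (chr14:56262355-56262414): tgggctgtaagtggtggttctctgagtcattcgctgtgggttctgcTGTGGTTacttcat
A match of letters is a description of the sequence and not a measured binding site.

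The likeness of Gzmc to Gzmg also bears on their counts. In the last 400 bases of the transcripts, where this kind of library reads, 17.9% of 50-base windows of Gzmg, 13.1% of Gzmd, 9.97% of Gzme and 9.12% of Gzmf were also found in another granzyme of the cluster. Gzma, Gzmb, Gzmc, Gzmk, Prf1 and Nkg7 shared no such window. The split of UMIs among Gzmd, Gzme, Gzmf and Gzmg is therefore uncertain, whereas that between Gzmc and the other genes rests on bases of its own.

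The libraries held 69255999 to 108646352 UMIs and 6783 to 8889 kept cells each, with a median of 2641.5 to 11698 UMIs per kept cell. Although cells were sorted for CD45, 3373 kept cells (10.5%) met a tumour gate without a UMI of Ptprc, the CD45 gene. This gate asked for at least 5 UMIs of Epcam, Krt8 and Krt18, and took 3147 of 7847 kept cells (40.1%) of library 1. Library 1 gave 285 of the 319 CD8 T cells, and libraries 1 and 4 gave 99 and 147 of the 287 NK cells, whereas library 2 gave 5 CD8 T cells and 11 NK cells. The NK gate carried Klrd1 in 69.0%, Tyrobp in 94.4% and Eomes in 46.3% of cells, with Cd3e in 5.57% and Cd8a in 0.348%. The CD8 T gate carried Cd3e in 93.1%, Trac in 81.2% and Cd8b1 in 94.0%, with Ncr1 in 0.627%, and Klrd1 was found in 80.6% of it. Markers of other cells were frequent in both: Lyz2, of myeloid cells, had a UMI in 72.8% of the NK gate and in 55.5% of the CD8 T gate, Col1a1, of fibroblasts, in 45.3% of the NK gate, and Krt8, of epithelial cells, in 58.9% of the CD8 T gate. By limits on these markers (at least 20 UMIs of S100a8 and S100a9, 5 of Lyz2, C1qa and C1qb, 5 of Epcam, Krt8 and Krt18, or 10 of Col1a1, Col3a1 and Sparc), 126 NK cells and 108 CD8 T cells carried markers of another lineage. Their medians were 17327 and 12016.5 UMIs, against 4085 UMIs in the 161 NK cells and 4295 UMIs in the 211 CD8 T cells without such markers, and the main results are given with and without these cells. The part of mixed droplets and free RNA in these values was not tested. Intervals of shares below are exact 95% intervals, and those of differences between shares are Newcombe 95% intervals, which are not exact. Both kinds cover counting error only, since cells of 1 library are not replicates.

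Most of the RNA of these genes was in the few killer cells. NK and CD8 T cells were 1.89% of kept cells and held 66.6% of the 46475 UMIs of the 10 genes, 50.8% in NK cells and 15.8% in CD8 T cells. The share held by both gates together was 93.1% for Gzmf, 78.0% for Nkg7, 76.6% for Prf1, 70.8% for Gzmc and 70.6% for Gzma. It was 50.3% for Gzmb, 35.0% for Gzme and 16.0% for Gzmg, so other cells held much of these 3 genes. T cells without a UMI of Cd4, Cd8a or Cd8b1 held another 10.9% of all UMIs of the 10 genes, and regulatory T cells and cells with the basophil protease gene Mcpt8 2.90% and 2.88%. Of the 5083 UMIs behind the 10.9%, 3054 were in 1 cell of library 1 that also had 9 UMIs of Ncr1.

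Gzma separated NK cells from CD8 T cells. It had a UMI in 181 of 287 NK cells (63.1%, interval 57.2 to 68.7) and in 16 of 319 CD8 T cells (5.02%, 2.89 to 8.02). In NK cells of libraries 1 to 4 it was found in 46.5%, 63.6%, 76.7% and 71.4%, at 1886, 3128, 3683 and 2412 CPM (counts per 1000000 UMIs). In CD8 T cells it was found in 3.86%, 40.0%, 6.25% and 15.4% of cells, at 250.4, 202.2, 52.7 and 192.9 CPM. The NK level was higher in each of the 4 libraries, by 7.53 to 69.9 times, although libraries 2 to 4 rest on 5 to 16 CD8 T cells. At a fixed depth of 1000 UMIs per cell, 56.1% of NK cells and 4.10% of CD8 T cells had the gene.

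Gzmb, the granzyme that starts apoptosis, was found in 183 NK cells (63.8%, 57.9 to 69.3) and in 99 CD8 T cells (31.0%, 26.0 to 36.4). NK cells of libraries 1 to 4 had it in 57.6%, 63.6%, 90.0% and 62.6% of cells, and CD8 T cells in 29.1%, 40.0%, 50% and 46.2%. Its summed level was 1031 CPM in NK cells and 322.5 CPM in CD8 T cells, and was 1.34 to 4.18 times higher in NK cells within the libraries. The detection intervals of the NK and CD8 T gates were apart over all cells and in library 1, and overlapped in libraries 2, 3 and 4.

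Prf1, which encodes the pore former, was found in 175 NK cells (61.0%, 55.1 to 66.7) and in 123 CD8 T cells (38.6%, 33.2 to 44.1). Its detection in NK cells of libraries 1 to 4 was 50.5%, 54.5%, 86.7% and 63.3%. In CD8 T cells it came almost wholly from library 1, with 121 of 285 cells (42.5%, 36.6 to 48.4) there, 0 of 5 cells in library 2 (which allows a share of up to 52.2%), 1 of 16 in library 3 and 1 of 13 in library 4. Over cells thinned to 1000 UMIs, Prf1 was detected in 30.5% of NK cells and 14.5% of CD8 T cells.

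Nkg7 differed between the gates in a direction that depended on the library. Over all cells it had a UMI in 213 NK cells (74.2%, 68.7 to 79.2) and in 303 CD8 T cells (95%, 92.0 to 97.1), at 663 and 1411 CPM. In libraries 1 to 4 its level was 569, 777, 1031 and 640 CPM in NK cells and 1601, 344, 128 and 297 CPM in CD8 T cells, so that it was higher in CD8 T cells in library 1 and in NK cells in the other 3. Its shares in CD8 T cells of libraries 1 to 4 were 98.6%, 80.0%, 37.5% and 92.3%, and in NK cells 67.7%, 72.7%, 96.7% and 74.1%. Library 3 was thus lowest for CD8 T cells and highest for NK cells, on 16 and 30 cells. The gap between the pooled shares at full depth also rested on the NK cells with markers of another lineage. Without them and their CD8 T counterparts, Nkg7 was in 95.7% of NK cells and in 95.3% of CD8 T cells. Without these cells Gzma, Gzmb and Prf1 were in 79.5%, 82.0% and 78.3% of NK cells, and in 5.21%, 27.5% and 37.9% of CD8 T cells.

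Gzmk, related to Gzma, was sparse, with 31 UMIs in 18 NK cells (6.27%, 3.76 to 9.73) and 41 UMIs in 30 CD8 T cells (9.40%, 6.44 to 13.2). Its intervals overlapped between the gates, and 14 of the 18 NK cells were in library 4. Of the rodent granzymes, Gzmc was found in 47 NK cells (16.4%) and 27 CD8 T cells (8.46%), and Gzmf in 5 NK cells (1.74%) and 28 CD8 T cells (8.78%). The intervals were apart for both genes. In library 1 alone those of Gzmc stayed apart (32.3% of NK cells, 23.3 to 42.5, and 9.12% of CD8 T cells, 6.05 to 13.1). Those of Gzmf overlapped there (4.04%, 1.11 to 10.0, and 9.47%, 6.34 to 13.5). Without other-lineage cells Gzmc was in 16.8% of NK cells (11.4 to 23.5) and 4.27% of CD8 T cells (1.97 to 7.94), and the intervals of Gzmf overlapped (2.48%, 0.681 to 6.24, and 7.11%, 4.03 to 11.5), with 63.3 CPM in NK cells and 75.1 CPM in CD8 T cells in place of 14.3 and 265.6 CPM. Over all libraries Gzmd, Gzme and Gzmg were each found in at most 5.92% of either gate, with overlapping intervals. In library 1 Gzmd was in 15.2% of NK cells (8.74 to 23.8) and 4.91% of CD8 T cells (2.71 to 8.10), with intervals apart. For free RNA, the neutrophil gate of 7859 cells, with a median of 2062 UMIs against 6515 in NK cells and 4979 in CD8 T cells, had Gzma in 1.57%, Gzmb in 0.878%, Nkg7 in 0.560% and Prf1 in 0.178% of its cells.

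**Figure D1:**
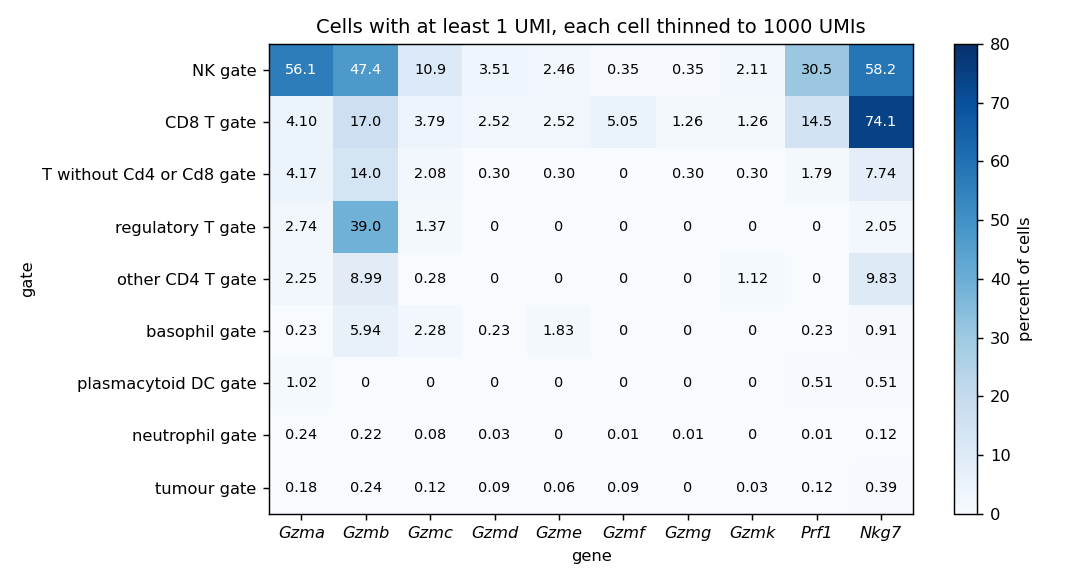
Percent of cells with at least 1 UMI of each of the 10 genes (columns) in 9 gates of cells (rows), each cell first thinned to 1000 UMIs; the colour and the printed value give the same percent. The NK row was high for Gzma (56.1%), Gzmb (47.4%), Prf1 (30.5%) and Nkg7 (58.2%), the CD8 T row for Nkg7 (74.1%), and the regulatory T row for Gzmb (39.0%) without Prf1 (0).

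**Figure D2:**
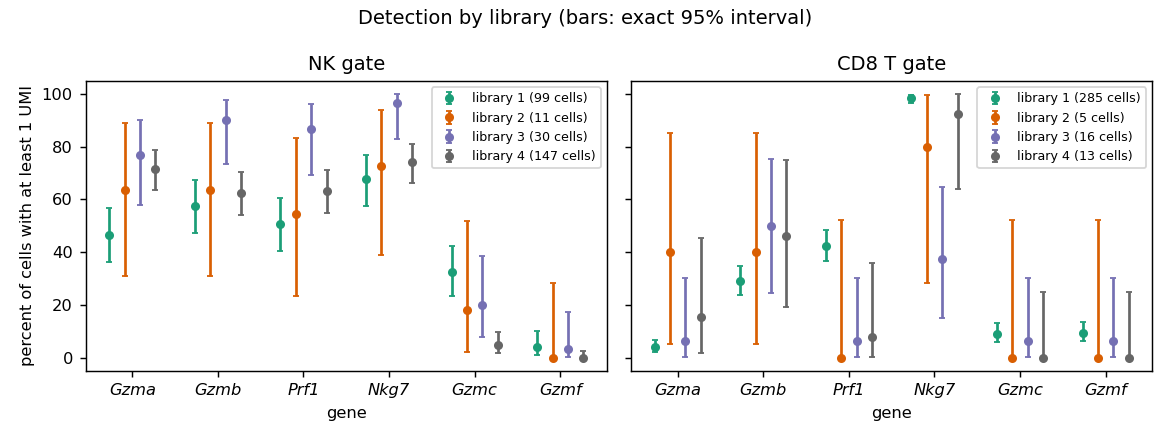
Percent of NK cells (left) and CD8 T cells (right) with at least 1 UMI of Gzma, Gzmb, Prf1, Nkg7, Gzmc and Gzmf in each of the 4 libraries; points are the shares and bars their exact 95% intervals. Prf1 in CD8 T cells stood at 42.5% in library 1 and at 0 to 7.69% in the others, and Gzmc in NK cells ranged from 4.76% in library 4 to 32.3% in library 1.

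NK cells carried the main granule genes together. Gzma, Gzmb, Prf1 and Nkg7, with none of the other 6 genes counted for or against, were all found in 139 of 287 NK cells (48.4%) and in 4 of 319 CD8 T cells (1.25%). Each NK cell had a median of 4 of the 10 genes, with at least 4 in 157 cells (54.7%) and all but 1 in a single cell. CD8 T cells had a median of 2, with at least 4 in 42 cells (13.2%). The most frequent set in CD8 T cells was Nkg7 without Gzma, Gzmb and Prf1 (132 cells, 41.4%), then Prf1 with Nkg7 (74 cells, 23.2%), Gzmb with Prf1 and Nkg7 (42 cells, 13.2%) and Gzmb with Nkg7 (40 cells, 12.5%). Nkg7 was thus present in nearly all CD8 T cells, and Gzmb and Prf1 were often found singly beside it.

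The NK gate also held 59 cells with none of the 10 genes. Of these, 55 (93.2%) carried markers of another lineage, 56 had a single UMI of Ncr1 and 4 had Klrd1, with a median of 16620 UMIs per cell. Of the 157 NK cells with at least 4 genes, 46 (29.3%) carried markers of another lineage and 144 had Klrd1. The label of the gate thus held poorly for the cells without granule genes. Without the cells with other markers, at least 4 genes were found in 68.9% of NK cells and in 9.48% of CD8 T cells. At 1000 UMIs per cell these shares were 32.7% and 4.31%, with medians of 3 genes and 1 gene.

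**Figure D3:**
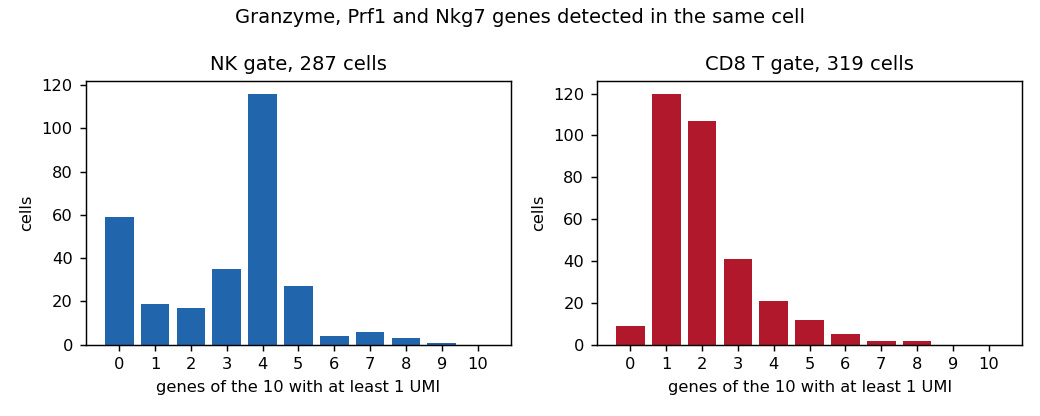
Number of the 10 genes with at least 1 UMI in a cell (horizontal axis) against the number of cells (vertical axis) in the NK gate (287 cells) and the CD8 T gate (319 cells). NK cells peaked at 4 genes (116 cells) with a second peak at none (59 cells), and CD8 T cells at 1 gene (120 cells) and 2 genes (107 cells).

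Gzmb and Prf1 were found in the same cell in 154 NK cells (53.7%, 47.7 to 59.5), where the product of the single shares was 38.9%. Without the cells with other markers both were in 67.7% of 161 NK cells (59.9 to 74.8), with Gzmb in 82.0% and Prf1 in 78.3%. The excess over the product of those single shares was smaller than in the whole gate. In CD8 T cells Gzmb and Prf1 were together in 46 cells (14.4%, 10.8 to 18.8), where the product was 12.0%. Prf1 was in 84.2% of NK cells with Gzmb (78.0 to 89.1) and in 20.2% of those without it (13.0 to 29.2), a difference of 64.0 percentage points. The difference was smaller without the cells with other markers, where Prf1 was in 82.6% of 132 NK cells with Gzmb (75.0 to 88.6) and in 58.6% of 29 cells without it (38.9 to 76.5). In CD8 T cells Prf1 was in 46.5% of cells with Gzmb (36.4 to 56.8) and in 35.0% of those without (28.7 to 41.7), a difference of 11.5 points with an interval of -0.0592 to 22.9. That interval lay above 0 when detection required at least 2 UMIs (17.1 points, 5.85 to 29.3), with stricter gates (13.2, 0.946 to 25.1) and without library 2, 3 or 4 (lower ends 0.267, 1.08 and 1.83). Without library 1, which gave 45 of the 46 CD8 T cells with both genes, 2.94% of CD8 T cells had both and the difference was 0.694 points.

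At equal depth the differences did not all move in 1 direction, and Prf1 itself was found less often. With both genes read at 1000 UMIs per cell, the difference in NK cells was 37.7 points (27.3 to 47.1), against 64.0 at full depth. Without other-lineage cells it was 26.6 points (10.8 to 40.0) in NK cells, against 24.0 at full depth. The difference in CD8 T cells at 1000 UMIs was 7.06 points (-2.71 to 20.1), and 5.87 points (-6.28 to 23.0) without other-lineage cells. With Gzmb read at full depth, cells thinned to 1000 UMIs and other-lineage cells left out, Prf1 was detected in 46.9% of NK cells with Gzmb and in 24.1% of those without, and the intervals overlapped. Among CD8 T cells of library 1 without other-lineage markers it was in 34.0% of cells with Gzmb (20.9 to 49.3) and in 12.9% of those without (7.80 to 19.6), intervals that were apart. That within-library split was chosen after the data had been seen.

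Gzmb without Prf1 was frequent outside the NK gate. Among cells with Gzmb, Prf1 was in 84.2% of NK cells and 46.5% of CD8 T cells. It was in 8 of 83 T cells without Cd4 or Cd8 (9.64%), 3 of 97 regulatory T cells (3.09%, 0.642 to 8.77) and 1 of 81 other CD4 T cells (1.23%). The CD8 T value rested on library 1, where Prf1 was in 45 of 83 cells with Gzmb. In libraries 2, 3 and 4 it was in 0 of 2, 1 of 8 and 0 of 6 such cells. Regulatory T cells, taken by Foxp3, had Gzmb in 97 of 147 cells (66.0%), at 831 CPM, and in 51.5%, 87.5%, 63.9% and 72.2% of cells in libraries 1 to 4. This share stood beside 63.8% in NK cells, but Prf1 was in 2.72% of regulatory T cells and in none of 146 after thinning. Gzma was in 13.4% of the regulatory T cells with Gzmb and in 86.9% of the NK cells with Gzmb.

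Where Gzmb was high, NK and regulatory T cells stayed far apart. With at least 5 Gzmb UMIs, a limit added after the data had been seen, Prf1 was in 103 of 110 NK cells (93.6%), 22 of 43 CD8 T cells (51.2%), 2 of 51 regulatory T cells (3.92%) and 0 of 24 other CD4 T cells, which allows a share of up to 14.2%. It was in 5 of 30 T cells without Cd4 or Cd8 (16.7%) and in 23 of 37 cells that met none of the gates (62.2%). Basophils, taken as cells with Mcpt8 and, in a split added after the data had been seen, with the protease gene Cpa3, had Gzmb in 57.1% of 35 cells, at 1247 CPM and with up to 219 UMIs in a cell. None of the 20 basophils with Gzmb had Prf1 or Gzma, which allows a share of up to 16.8% for each. All cells with Mcpt8 had Gzmb in 53 of 445 cells (11.9%), with Prf1 in 3 of the 53, all 3 without Cpa3. Plasmacytoid dendritic cells, taken by Siglech, had Gzmb in 2.54% of cells and in none of 196 after thinning.

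**Figure D4:**
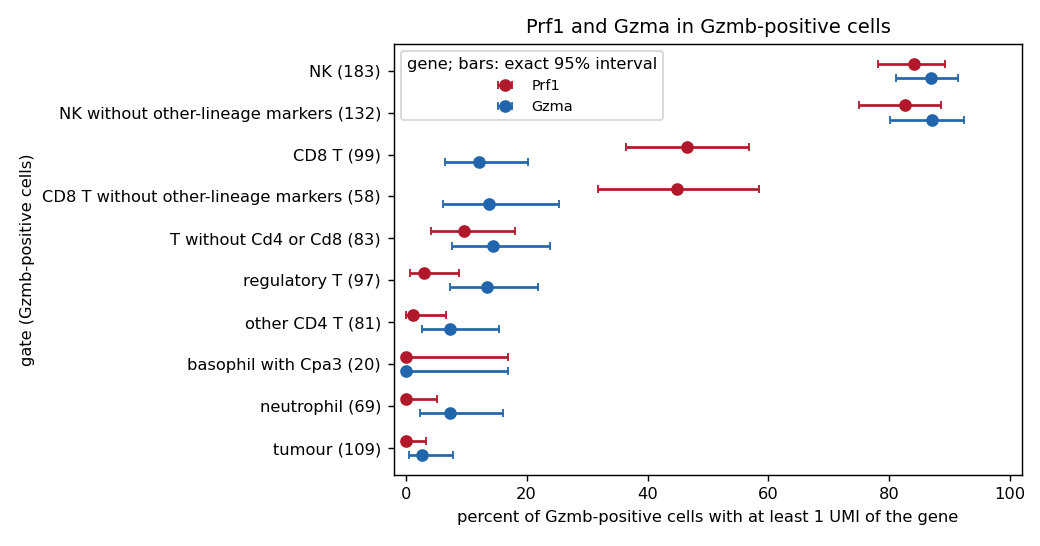
Percent of Gzmb-positive cells with at least 1 UMI of Prf1 (red) or Gzma (blue) in each gate, with exact 95% intervals and the number of Gzmb-positive cells in brackets. Prf1 fell from 84.2% in NK cells and 46.5% in CD8 T cells to 3.09% in regulatory T cells and 0 in basophils with Cpa3.

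Gzmc to Gzmg were abundant in a few cells, nearly all of library 1. In the NK gate 51 cells (17.8%) had any of the 5 genes, with 7116 UMIs in all, of which 7020 were in 34 cells of library 1. In the CD8 T gate 51 cells (16.0%) had 1373 UMIs, of which 1371 were in 49 cells of library 1. Within library 1 the shares were 34.3% of NK cells (25.1 to 44.6) and 17.2% of CD8 T cells (13.0 to 22.1), with intervals apart. Of all kept cells of library 1, 9.99% had any of the 5 genes, at a median of 11698 UMIs per cell against 4998 in its CD8 T cells. Without other-lineage markers 19 of 51 NK cells of library 1 had any, 14 of them at least 10 UMIs. So had 20 of 189 CD8 T cells, 8 of them at least 10 UMIs. Without library 1, the shares of cells were 9.04% of NK cells and 5.88% of CD8 T cells, and without library 4 the NK share was 30.0%. The 5 cells with most held 54.3% of the UMIs in the NK gate and 67.5% in the CD8 T gate, up to 1229 UMIs in an NK cell and 402 in a CD8 T cell. At least 2 of the 5 genes were found in 18 of the 51 NK cells and 20 of the 51 CD8 T cells.

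The gates differed in which gene led. UMIs count molecules whatever their length, and the 5 transcripts are 894 to 964 bases long. In NK cells Gzmc gave 6057 UMIs (85.1% of the 5 genes), Gzmd 707, Gzme 284, Gzmf 53 and Gzmg 15. In CD8 T cells Gzmf gave 729 UMIs (53.1%), Gzmc 234, Gzmd 210, Gzme 121 and Gzmg 79. Without other-lineage cells Gzmc gave 2960 of 3903 UMIs (75.8%) in NK cells, and in CD8 T cells 213 UMIs remained, of which Gzmf gave 76 (35.7%), Gzmd 61, Gzme 44, Gzmc 28 and Gzmg 4. Of 27 NK cells with at least 10 UMIs of the 5 genes, Gzmc led in 24, with a median of 96.6% of the UMIs held by the leading gene. Of 20 such CD8 T cells, Gzmf led in 9, Gzmd in 7, Gzmc in 2 and Gzme and Gzmg in 1 each, with a median leading share of 80.0%. Without other-lineage cells Gzmc led in 13 of 16 NK cells, and of 8 CD8 T cells Gzmd led in 4, Gzmf in 2 and Gzmc and Gzme in 1 each. The lead of Gzmf by number of CD8 T cells thus rested on cells with markers of another lineage. By summed UMIs Gzmf stayed first without them (76 of 213 UMIs, against 61 of Gzmd). All 20 of these CD8 T cells and 24 of the 27 NK cells were in library 1, so these counts rest on that library, and the split among Gzmd to Gzmg carries the uncertainty given with their sequences.

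**Figure D5:**
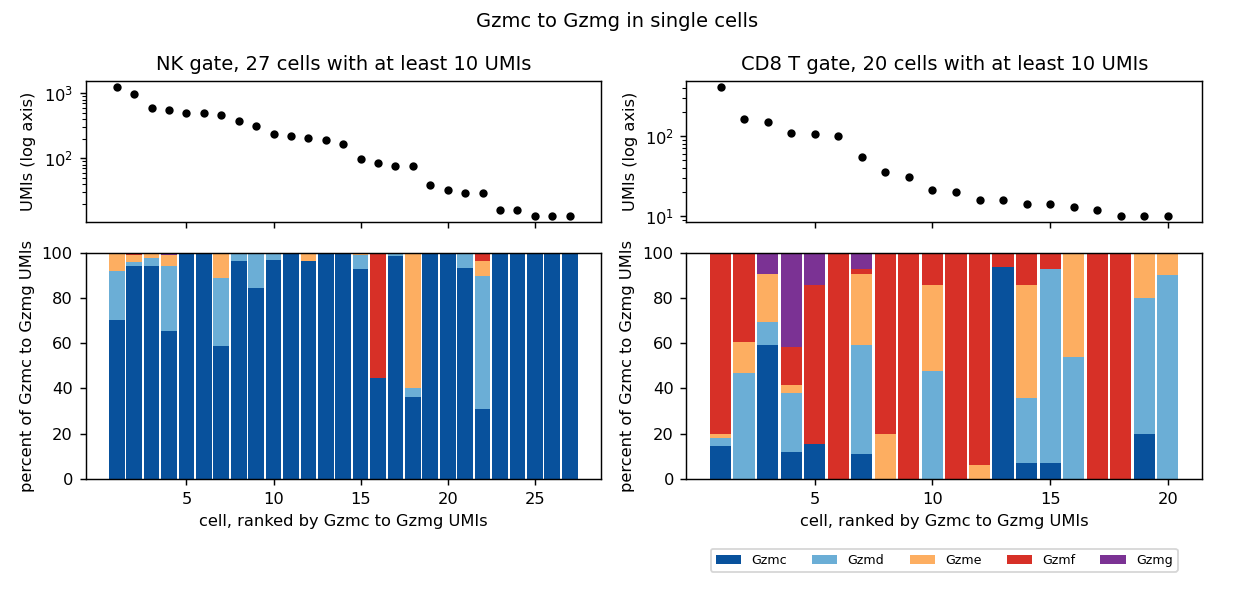
Summed UMIs of Gzmc to Gzmg on a log axis (top) and the percent of them given by each gene (bottom) in single cells with at least 10 such UMIs, ranked by that sum, for 27 NK cells (left) and 20 CD8 T cells (right). Dark blue, Gzmc, filled most NK bars (it led in 24 cells), and red, Gzmf, was the most frequent leader in CD8 T cells (9 of 20 cells, and 2 of 8 without other-lineage markers).

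Cells with Gzmc to Gzmg differed from the other cells of their gate in further genes of lists on granule, inhibitor, effector, regulator, receptor and cycling genes. These were compared at 1000 UMIs per cell, without cells with markers of another lineage. No share over all genes was computed for such splits within a gate, nor for those by Gzma, Gzmb and Prf1 below. The genes with intervals apart thus have no background to be set against, and most genes of the lists had overlapping intervals. In NK cells with any of the 5 genes (27 against 132 cells) Gzma was in 40.7% against 82.6%, the chemokine genes Ccl5 in 37.0% against 78.0% and Ccl3 in 11.1% against 38.6%. The protease inhibitor gene Serpina3g was in 22.2% against 1.52% and Top2a, of dividing cells, in 18.5% against 1.52%. The other 5 genes of the cycling list had overlapping intervals. In library 1 alone the intervals stayed apart for Ccl5, at 22.2% of 18 cells and 77.4% of 31 cells, and overlapped for Gzma, Ccl3, Serpina3g and Top2a. With the other-lineage cells kept in, the intervals overlapped for Gzma and Top2a. In CD8 T cells with any of the 5 genes (21 against 188 cells) Prf1 was in 42.9% against 13.3%, with intervals apart, and with other-lineage cells kept in they overlapped (27.5% of 51 and 12.0% of 266 cells). Of the granzyme inhibitor genes, 1 was higher in these CD8 T cells over all libraries and in library 1, with or without other-lineage cells, and 3 overlapped. Of the regulators, 1 was higher only without other-lineage cells.

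NK cells without Gzma less often had Gzmb, Prf1 and Nkg7, and without other-lineage cells more often had Gzmc. Among NK cells without other-lineage markers, 128 cells with Gzma and 31 without, Gzmb was in 70.3% against 35.5%, Prf1 in 50% against 12.9%, Nkg7 in 89.1% against 51.6% and Ccl5 in 79.7% against 35.5%. The cells without Gzma more often had Gzmc (38.7% against 6.25%), the chemokine gene Xcl1 (58.1% against 28.9%) and Rora, a regulator of innate lymphoid cells (29.0% against 3.91%). They also more often had Serpina3g (22.6% against 0.781%) and Tnfsf10, the gene of the death ligand TRAIL (12.9% against none). The other innate lymphoid markers of the lists, Il7r, Gata3 and Itga1, had overlapping intervals. All 12 other granule pathway genes and all 6 cycling genes of the lists had overlapping intervals in this split. In library 1 the intervals stayed apart for Gzmb, Prf1 and Nkg7 and overlapped for the other genes named here. Among these was Gzmc, in 52.9% of 17 cells without Gzma and 21.9% of 32 with it. With other-lineage cells kept in, the intervals of Gzmb, Prf1, Nkg7 and Ccl5 were apart and those of the 5 genes of the cells without Gzma overlapped.

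Among all CD8 T cells, the 99 with Gzmb more often had Ccl5 (43.4% against 18.8% of 218 cells), Prdm1, a regulator of effector cells (7.07% against 0.459%), Gzma (11.1% against 0.917%) and Gzmf (13.1% against 1.38%), and less often Xcl1 (7.07% against 21.6%). The 123 CD8 T cells with Prf1 more often had the interferon-gamma gene Ifng (45.5% against 26.3% of 194 cells), the costimulatory receptor gene Tnfrsf9 (34.1% against 17.5%), Gzmd (6.50% against none) and Nkg7 (86.2% against 66.5%). The intervals of each of these pairs were apart. In both splits all 12 other granule pathway genes, all 4 granzyme inhibitor genes and all 6 cycling genes had overlapping intervals. Without other-lineage cells the intervals of the named genes stayed apart for Ccl5, Prdm1, Gzma and Xcl1 with the split by Gzmb (Ccl5 53.4% of 58 and 21.2% of 151 cells). They overlapped for Gzmf and for the 4 genes split by Prf1. In library 1 alone they overlapped for Prdm1 and Gzma in the split by Gzmb and for Ifng in the split by Prf1, and in library 1 without other-lineage cells Ccl5 alone of the genes named here stayed apart.

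Between the gates, genes of the lists were also compared at 1000 UMIs per cell. Over 9390 genes with at least 50 UMIs, which hold 50 of the 54 listed genes, intervals were apart with NK cells higher in 2.31% and with CD8 T cells higher in 2.27%. Over 14139 genes with at least 1 UMI at that depth these shares were 1.57% and 1.51%. Of 12 other genes of the granule pathway, 2 had intervals apart with CD8 T cells higher and 1 with NK cells higher. Srgn, the proteoglycan that packs granules, was in 78.2% of CD8 T and 67.7% of NK cells, Cst7, an inhibitor of cathepsins, in 25.2% and 9.47%, and Lamp2, a lysosomal membrane protein, in 5.99% and 13.3%. Without other-lineage cells Cst7 alone stayed apart, and Srgn was in 82.8% and 83.6%. Of 4 serpin genes, 3 were higher in NK cells: Serpinb9, whose product inhibits granzyme B, in 21.8% against 5.05%, Serpinb6b in 18.9% against 5.99% and Serpinb9b in 6.67% against 1.26%. Without other-lineage cells Serpinb9 was in 33.3% of NK and 4.78% of CD8 T cells, and all 3 stayed apart. Of 8 other effector genes, Ifng was higher in CD8 T cells (33.8% against 16.1%) and Ccl5 in NK cells (48.8% against 26.5%). Of 10 regulators, Eomes and Irf8 were higher in NK cells, Irf4 and Tox in CD8 T cells, and of 14 activation and checkpoint receptors 6 were higher in CD8 T cells, among them Pdcd1 (37.9% against 0.351%). None of 6 cycling genes had intervals apart. Without other-lineage cells these effector genes, regulators and receptors kept their sides, joined by Ccl3 and Il2rb in NK cells, where over all genes with at least 50 UMIs 1.7% had NK cells higher and 1.72% CD8 T cells higher. In library 1 alone, intervals were apart for 1 granule gene, 1 serpin gene, 1 effector gene, 3 regulators and 5 receptors, where NK cells were higher in 0.754% and CD8 T cells in 1.04% of genes with at least 50 UMIs. In library 4, with 13 CD8 T cells, 1 of the 54 genes, Irf8, was apart, against 0.0684% with NK cells higher and 0.365% with CD8 T cells higher.

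Across 32 units of gate and library with at least 20 cells, the genes outside the 10 with the pattern most like Prf1, among 9415 genes, were Xcl1 (Pearson's r 0.99), Klre1 (0.98), Cd160 (0.96), Klrc1 (0.96) and Fcrl6 (0.94). Those most like Gzmb were Txk (0.92), Sytl3 (0.90), Gimap7 (0.86), Gm15472 (0.86) and Il2rb (0.86), and Gzmb and Prf1 had an r of 0.68 with each other. The genes ranked had at least 50 UMIs in the NK and CD8 T gates together. This filter used the gates in which Prf1 was high, so it favours genes of those gates. NK cells gave units of libraries 1, 3 and 4, and CD8 T cells of library 1 alone. Units of the same library share its depth. The values describe likeness of levels on a log2(CPM + 10) scale and carry no p.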

How the data were processed

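Single-cell libraries of CD45-sorted cells from 4T1 tumours of 4 labelled samples were analysed from 1 deposited matrix of whole-number UMI counts, not normalised. The authors made it with Cell Ranger, of which the matrix header names version 6.1.2 and the submitters' processing notes version 2.1.1, on mm10. The annotation was not given in the sources used here. The filter of at least 300 genes and at most 15% mitochondrial UMIs is not applied in the deposited counts and was applied here, leaving 32133 of 33064 barcodes.

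Cells were gated on UMIs of lineage genes in Python 3.11.15 with numpy 2.4.6, scipy 1.17.1 and pandas 2.3.3. Shares have exact Clopper-Pearson 95% intervals, and differences between shares have Newcombe 95% intervals built from Wilson limits. Both cover counting error only. For equal depth each cell was thinned to 1000 UMIs without replacement, which left out 4 NK or CD8 T cells and 252 neutrophils. Shares at 1000 UMIs in splits by a gene used the unthinned counts of that gene for the split. No doublet caller was run. Marker and depth limits were tried instead. Between 11 and 23 barcode sequences were shared by each pair of libraries, 3 of them in NK or CD8 T cells. Gene positions are those of GENCODE on GRCm38, and promoters those of RefSeq. Scripts were tested on simulated data.

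The named genes are the 10 members, genes of lists on the granule pathway, inhibitors, effectors, regulators, receptors, cycling and lineage markers (Trgc2 is not a symbol of the table and was left out), and the 5 genes most like Gzmb and most like Prf1. Members and lists were chosen with earlier results of these data known. The alternatives were at least 2 UMIs for detection, thinning, stricter gates, other limits on cells, leaving out cells of another lineage or the deepest cells, and leaving out each library. The result of 1 receptor gene of the lists is not reported here.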

Additional observations from a re-analysis of the deposited data

How the results depend on the processing

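No paired analysis was possible because no library is tied to a labelled sample and no result comes from a test. Over the 7 summary values that were recomputed, 56 of 83 values stayed within the 95% interval of the main value. Only the differences in Prf1 detection could change sign, since the other summary values are shares, and neither difference did. For single genes the gates came close without other-lineage cells. At full depth Nkg7 was then in 95.7% of NK and 95.3% of CD8 T cells, but at 1000 UMIs per cell it stayed more frequent in CD8 T cells. Srgn, read at 1000 UMIs, was in 83.6% of NK and 82.8% of CD8 T cells, with overlapping intervals. Requiring at least 2 UMIs for detection gave Gzmb with Prf1 in 37.3% of NK cells and 8.46% of CD8 T cells, any of Gzmc to Gzmg in 12.2% and 9.72%, and a Prf1 difference between NK cells with and without Gzmb of 50.5 points. It gives no separate value for the share of UMIs held by both gates. Thinning to 1000 UMIs gave 23.9%, 3.47%, 11.2%, 8.52% and 37.7 points in the same order, and a UMI share of 66.1%. Stricter gates gave 69.2% of NK cells with Gzmb and Prf1, a difference of 25.6 points and a UMI share of 47.8%. Leaving out cells with markers of another lineage gave 67.7% of NK cells with both genes, 9.95% of CD8 T cells with any of Gzmc to Gzmg, a difference of 24.0 points and a UMI share of 73.5%, and leaving out the deepest cells a UMI share of 67.8%. Thinning without other-lineage cells, added after the data had been seen, gave 33.3% and 3.35% with Gzmb and Prf1, 13.2% and 6.70% with Gzmc to Gzmg, 26.6 points and a UMI share of 67.8%. Leaving out 1 library at a time gave 50.6 to 59.0% and 2.94 to 15.0% with Gzmb and Prf1 in NK and CD8 T cells, 9.04 to 30.0% and 5.88 to 16.7% with Gzmc to Gzmg, differences of 58.7 to 65.5 and 0.694 to 13.8 points, and a UMI share of 58.3 to 68.7%. The lowest of these CD8 T values and of the NK share with Gzmc to Gzmg were those without library 1. The cause of each move was not tested. Depth limits detection: at 1000 UMIs per cell Prf1 was found in 14.5% of CD8 T cells, Gzmf in 0.351% of NK cells and Gzmk in 1.26% of CD8 T cells.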

Other observations

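Gzmg was mostly 1 cell. A cell of library 1 had 16572 UMIs, 9 of Ncr1, 10 of Cd3d, 74 of Tyrobp and none of Cd3e, Cd3g or Trac. It met neither the NK nor the CD8 T gate and fell among the T cells without Cd4 or Cd8. It held 443 UMIs of Gzmg, 75.2% of all Gzmg in kept cells. It also held 1321 UMIs of Gzmc, 516 of Gzmb, 313 of Gzmd, 198 of Gzma, 114 of Gzme, 85 of Prf1 and 64 of Nkg7. Together the 10 genes gave 3054 of its UMIs (18.4%). It was 1 of 25 cells with Ncr1 and Cd3d outside the CD8 T gate, of which Gzmb was in 64.0%, Prf1 in 52.0%, Gzma in 52.0% and Nkg7 in 88.0%.

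Gzme was found outside lymphocytes beside Mcpt8, the gene of a basophil protease. Mcpt8 is also on chromosome 14 (chr14:56082166-56085273), outside the stretch of Gzmb to Gzmg (chr14:56117626-56262260). In library 1, 15 cells outside the lymphocyte gates had at least 5 UMIs of Gzme, up to 153, and 11 of them (73.3%, exact interval 44.9 to 92.2) had Mcpt8, against 281 of 7172 cells without Gzme (3.92%). These 15 cells had a median of 201 UMIs of Sparc and 138 of Col1a1, both of fibroblasts. Epithelial markers were found in them too, Krt8 in 14, Krt18 in 13 and Epcam in 10 cells, with medians of 3, 3 and 1 UMIs. Of the 15 cells, 8 had Gzmd and 7 Gzmc. Gzma and the basophil gene Cpa3 were at 0 in all 15 cells, Ptprc in 11, and Prf1 had a UMI in 1. In the other libraries such cells were few, 1 in library 2, 0 in library 3 and 3 in library 4. None of them had Mcpt8, which allows a share of up to 97.5% in library 2 and 70.8% in library 4. These cells were singled out after their values had been seen.

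In library 1, 349 of 3147 cells of the tumour gate had a UMI of Gzmc to Gzmg, with 413 UMIs in all. At 1000 UMIs per cell Gzmc was found in 0.120% of the tumour gate.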
